A study of Mus musculus with 40 samples.

Results

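Acod1, the gene of the enzyme that makes itaconate, and 8 genes of the tricarboxylic acid (TCA) cycle and its isocitrate dehydrogenases were followed in macrophages before and after LPS. The 9 genes, Acod1, Cs, Idh1, Idh2, Idh3a, Ogdh, Sdha, Sdhb and Mdh2, were taken by name, and all 9 were found among the 57010 gene identifiers of the count table. They passed the filter on low counts in every comparison. The cells were macrophages grown from mouse bone marrow in medium conditioned by L929 cells, which supplies the growth factor M-CSF. All mice carried a floxed Otulin gene (OtulinFL/FL), either with no Cre (called WT here) or with LysMCreTg/WT, a Cre recombinase driven by the lysozyme M promoter of myeloid cells (called KO here). OTULIN is a deubiquitinase specific for linear (M1-linked) ubiquitin. Cells of each genotype were sampled without LPS (0 h) and after 3, 6, 12 and 24 h of 500 ng/ml LPS, a bacterial cell wall component sensed by TLR4. Each of the 10 groups held 4 biological replicates, which gave 40 libraries. The age and sex of the mice were not given in the labels. No group had Cre without the floxed gene, so in each KO minus WT difference loss of Otulin and presence of Cre cannot be told apart. In such bulk samples fewer cells of a type and less RNA per cell cannot be told apart.

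The TCA cycle oxidises acetyl groups in mitochondria. Citrate synthase (Cs) joins acetyl-CoA to oxaloacetate, citrate is turned into isocitrate through cis-aconitate, isocitrate and oxoglutarate dehydrogenases release CO2, succinate dehydrogenase passes electrons to the respiratory chain, and malate dehydrogenase (Mdh2) restores oxaloacetate. In activated macrophages ACOD1 diverts cis-aconitate to itaconate, an antibacterial and signalling metabolite that inhibits succinate dehydrogenase, and the cycle is known for breaks at isocitrate dehydrogenase and succinate dehydrogenase. The data here are RNA levels. They measure neither enzyme activity nor metabolites.

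RNA was counted by 3′ tag sequencing, in which 1 read marks the end of 1 transcript. Levels are given as CPM, counts scaled to the library total multiplied by edgeR's TMM factor, and not to the plain total. This factor ran from 1.22 to 1.29 in the 0 h libraries and from 0.827 to 0.901 in the 6 h libraries. Differences in CPM between times therefore depend on it. Library totals ran from 3615155 to 6829303 counts. The labelled cell type was checked against marker lists. The 8 macrophage markers, among them Adgre1, Csf1r and Cd68, summed to 5212 to 5848 CPM in WT and 4602 to 5751 CPM in KO libraries at 0 h. The 10 neutrophil markers were present at a low level, led by S100a8 (4914 counts over the 40 libraries, at most 43.0 CPM in a library), S100a9 (2301 counts), Ngp (314) and Mpo (150), while Ly6g and Retnlg were at or near 0, with 3 counts each. The 8 lymphoid and 5 mast cell and basophil markers reached at most 1.503 and 0.495 CPM in sum in a library. By sex-linked transcripts the KO 3 and WT 4 libraries were male and the rest female. Otulin's own 3′ tag ran from 27.6 to 47.5 CPM in the 20 WT libraries and from 27.6 to 51.7 CPM in the 20 KO libraries. The labels do not say which exons Cre removes or in how many cells, so this tag does not check the genotype labels.

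Acod1 (ENSMUSG00000022126) rose more than 100-fold within 3 h in both genotypes, peaked at 6 h and was still high at 24 h. At 0 h the 4 WT libraries, replicates 1 to 4, held 6.55, 15.2, 27.2 and 20.2 CPM and the 4 KO libraries 14.4, 18.7, 20.7 and 16.6 CPM. The WT libraries were spread wider than the KO ones, with WT 1 the lowest and WT 3 the highest of all 8. At 3 h the WT libraries held 2184, 2053, 2243 and 2413 CPM and the KO libraries 2204, 2561, 1883 and 2261 CPM. At 6 h they held 3505, 3701, 3846 and 3278 CPM in WT and 3649, 4183, 3876 and 4493 CPM in KO. Every LPS library lay far above every 0 h library, and the 2 genotypes overlapped at each time. At 12 h the values were 3675, 3463, 2835 and 2749.8 CPM in WT and 3401, 3141, 3272 and 3787 CPM in KO. At 24 h they were 2782, 2727, 2279 and 2160.3 CPM in WT and 2236, 2454, 2189 and 2611 CPM in KO. The 24 h libraries of each genotype all lay below the 6 h libraries of the same genotype.

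In edgeR's quasi-likelihood test the WT rise of Acod1 over 0 h was 7.02 ± 0.27 log2 (SE, n = 4 per group) at 3 h, 7.71 ± 0.27 at 6 h, 7.54 ± 0.27 at 12 h and 7.18 ± 0.27 at 24 h. The KO rise was 6.97 ± 0.13, 7.83 ± 0.14, 7.58 ± 0.14 and 7.07 ± 0.13 log2 at the same times. All 8 contrasts passed the test, with adjusted p up to 6.73e-14. At 6 h the rise was 209-fold in WT (95% interval 140.4 to 311) and 227-fold in KO (186 to 277). The interval was wider in WT, where the 0 h libraries were more spread. From 6 h to 24 h Acod1 fell by 0.75 ± 0.099 log2 in KO (adjusted p = 5.23e-07) and by 0.52 ± 0.19 log2 in WT (adjusted p = 0.0264), to 58.6% and 69.4% of the 6 h mean. The WT fall was not called without WT 2, WT 3 or WT 4 (adjusted p = 0.109, 0.0908 and 0.0763), where a replicate left out was left out at all 5 times of its genotype. By mean level the order of the times was 0, 3, 24, 12 and 6 h in both genotypes. Libraries of neighbouring times in this order overlapped between 3 and 24 h and between 12 and 6 h. Those of 24 and 12 h overlapped in WT and not in KO.

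**Figure D1:**
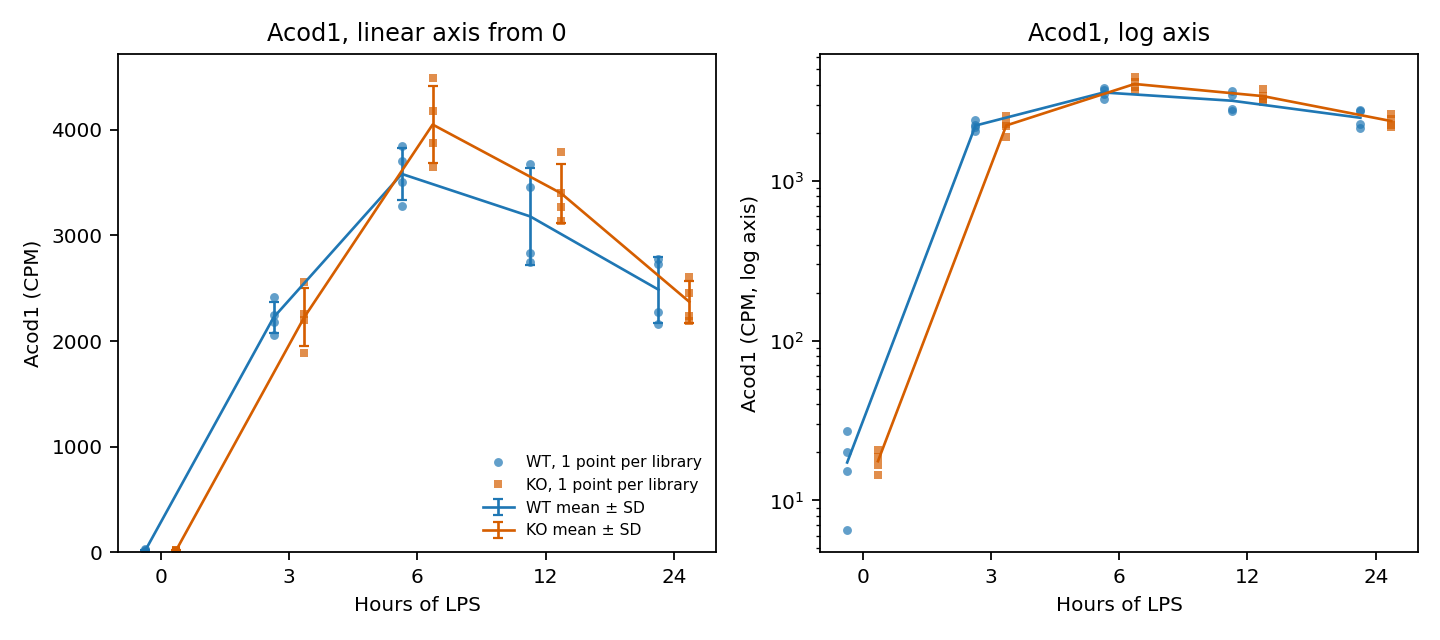
Acod1 in CPM (vertical axis, linear from 0 on the left and logarithmic on the right) against hours of LPS (horizontal axis, 5 times evenly spaced), with 1 point per library, WT as blue circles and KO as orange squares. Lines join group means and the left bars are SD over 4 libraries. Both genotypes go from about 17.3 CPM at 0 h to 3583 CPM in WT and 4050.3 CPM in KO at 6 h and come down by 24 h.

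The promoter of Acod1 is shown beside those of Idh2, which fell late, and Sdhb, which rose late, so that the start regions of an induced, a falling and a rising gene can be read together. Each runs from 250 bases before to 50 after the gene's start in RefSeq (GRCm38.p6, which is not the build of the count table), 5′ to 3′ on the gene's strand. Capitals mark every match to the motifs searched on both strands. These were the TATA box TATAAA, the ISRE-like GAAANNGAA, the GAS-like TTCNNNGAA, the kappaB consensus, the AP-1 motif TGANTCA, the CCAAT box CCAAT, the GC box GGGCGG, the ETS core CCGGAAG, the E-box CACGTG and the ERR motif AAGGTCA. Acod1 lies at chr14:103046762-103047061 on the plus strand, Idh2 at chr7:80115301-80115600 on the minus strand and Sdhb at chr4:140961021-140961320 on the plus strand.
Acod1: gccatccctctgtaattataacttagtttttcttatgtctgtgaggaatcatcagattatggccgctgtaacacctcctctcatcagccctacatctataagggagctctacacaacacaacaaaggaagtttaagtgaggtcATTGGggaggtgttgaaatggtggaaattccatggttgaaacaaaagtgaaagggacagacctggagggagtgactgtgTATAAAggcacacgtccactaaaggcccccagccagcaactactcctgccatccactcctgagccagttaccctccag
Idh2: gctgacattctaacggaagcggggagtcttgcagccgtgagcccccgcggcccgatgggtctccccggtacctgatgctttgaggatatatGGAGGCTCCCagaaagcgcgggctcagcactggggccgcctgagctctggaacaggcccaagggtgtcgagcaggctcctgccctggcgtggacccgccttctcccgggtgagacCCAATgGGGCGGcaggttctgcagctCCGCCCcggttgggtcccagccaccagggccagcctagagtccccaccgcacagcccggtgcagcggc
Sdhb: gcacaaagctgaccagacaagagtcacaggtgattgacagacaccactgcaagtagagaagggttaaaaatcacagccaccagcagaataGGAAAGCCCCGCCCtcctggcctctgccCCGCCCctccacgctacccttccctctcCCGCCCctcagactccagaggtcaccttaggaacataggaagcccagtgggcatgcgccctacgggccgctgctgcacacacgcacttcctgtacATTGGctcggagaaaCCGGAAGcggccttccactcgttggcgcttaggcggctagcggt
The Acod1 window held a TATA box 28 bases before the start and a reversed CCAAT box 107 bases before it. Its GC content was 47.0%, against 68.3% for Idh2 and 60.0% for Sdhb and a median of 52.7% over the 32851 windows of the table. Of the 9 genes 8 had an entry, with 14 windows in all, and Idh3a had none. Acod1's window was the only 1 of the 14 with TATAAA, which 13.6% of all windows hold. The GC box was in 10 of the 14 windows and in 35.7% of all windows, and the CCAAT box in 12 of 14 and in 37.4%. Of the 14 windows 6 belong to Ogdh and most of these overlap each other. The same sites thus count more than once, and these counts are not counts of genes. The kappaB consensus was in 3 of 14, those of Idh2, Sdhb and 1 of the 6 Ogdh windows, and in 8.46% of all. In Sdhb its letters ran into a GC box. The kappaB form searched has 10 letters and begins with GGG. Stretches that differ from it, such as ggaaattcc in the Acod1 window, were not counted. That Acod1 had no match says only that this form is not in its window. The shares over all windows were 8.56% for the ISRE-like motif, 8.30% for the GAS-like motif, 7.81% for AP-1, 8.86% for the ETS core, 7.15% for the E-box and 4.72% for the ERR motif. The first 3 of these were in 0 of the 14 windows, which says only that these letters are not in these stretches.

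The isocitrate dehydrogenase genes fell, Idh1 to its lowest mean at 6 h and Idh2 and Idh3a to theirs at 12 h, in both genotypes. Idh1 (ENSMUSG00000025950), the cytosolic NADP-dependent enzyme, fell first. At 0 h it lay at 208, 191, 223 and 244 CPM in the 4 WT libraries and 236, 218, 214 and 228 CPM in the KO ones, and at 6 h at 101, 85.4, 97.3 and 85.1 and 108, 94.5, 99.6 and 81.7 CPM. Every 6 h library was well below every 0 h library. The 3 h values stood between, at 175, 163, 188 and 174 CPM in WT and 182, 192, 167 and 179 CPM in KO, already below all 0 h values of the same genotype. The 12 h values were 132, 105, 124 and 119 CPM in WT and 126, 118, 81.2 and 124 CPM in KO, and the 24 h values 124, 99.4, 119 and 125 and 113, 101, 106 and 100 CPM. These stayed below the 3 h values, with KO 3 at 12 h lower than the other 3 KO libraries. The WT changes from 0 h were −0.31 ± 0.087, −1.24 ± 0.091, −0.86 ± 0.089 and −0.89 ± 0.088 log2 (SE, n = 4) at 3, 6, 12 and 24 h, and all 4 passed (adjusted p up to 0.00348). In KO they were −0.33 ± 0.10, −1.24 ± 0.11, −1.01 ± 0.11 and −1.09 ± 0.11, and all 4 passed too (adjusted p up to 0.0119). The KO fall at 3 h was not called without KO 1 (adjusted p = 0.0524). Between 6 h and 24 h Idh1 rose by 0.34 ± 0.093 in WT (adjusted p = 0.00224), and the KO difference was 0.15 ± 0.11 (adjusted p = 0.259). That these 2 changes differ was not shown (difference −0.20 ± 0.13, adjusted p = 0.908).

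Idh2 (ENSMUSG00000030541), the mitochondrial NADP-dependent enzyme, did not pass at 3 h in either genotype and dropped between 6 and 12 h. At 0 h its libraries lay at 103, 98.5, 111 and 99.7 CPM in WT and 96.7, 106, 107 and 108 CPM in KO, and at 6 h at 95.0, 87.1, 94.2 and 84.1 and 102, 109, 94.4 and 93.0 CPM. In WT the 6 h libraries were all below the 0 h libraries, while in KO the 2 times overlapped. At 12 h they lay at 52.6, 44.2, 48.1 and 56.5 CPM in WT and 57.3, 61.6, 61.9 and 54.7 CPM in KO, and at 24 h at 53.2, 52.2, 54.3 and 65.2 and 57.1, 56.6, 58.3 and 73.6 CPM. All 12 h and 24 h libraries were below all 6 h libraries of both genotypes, and replicate 4 was the highest at 24 h in each genotype. The 3 h ranges, 90.8 to 117 CPM in WT and 97.7 to 126 CPM in KO, overlapped 0 h. The change was −1.04 ± 0.092 log2 at 12 h and −0.88 ± 0.090 at 24 h in WT, and −0.84 ± 0.096 and −0.76 ± 0.095 in KO (SE, n = 4; adjusted p up to 1.74e-07). Of the 6 h changes, −0.20 ± 0.088 in WT passed (adjusted p = 0.0458) and −0.084 ± 0.094 in KO did not (adjusted p = 0.448). The WT call at 6 h was lost without WT 1, WT 2, WT 3 or WT 4 (adjusted p = 0.0705, 0.134, 0.148 and 0.0794).

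Idh3a (ENSMUSG00000032279), the catalytic subunit of the NAD-dependent isocitrate dehydrogenase of the cycle itself, had the largest falls of the 9 genes at 12 and 24 h against 0 h, while Idh1 fell further at 6 h. Its libraries lay at 31.7, 25.2, 35.0 and 31.1 CPM in WT and 47.2, 34.6, 31.7 and 31.1 CPM in KO at 0 h, with KO 1 above the other 7. At 6 h they lay at 20.1, 19.6, 24.4 and 19.8 and 21.6, 21.4, 26.4 and 27.3 CPM, below all 0 h values of their genotype. At 12 h they were at 12.7, 10.6, 13.1 and 7.71 CPM in WT and 9.22, 10.3, 7.77 and 15.8 CPM in KO, the lowest of the 5 times by mean in both genotypes. At 24 h they were at 16.2, 11.6, 16.0 and 15.0 and 10.1, 9.54, 11.1 and 19.0 CPM, with KO 4 above the other KO libraries. These remained below all 6 h values. The 3 h ranges overlapped 0 h in both genotypes, with means of 29.2 ± 3.62 CPM in WT and 29.0 ± 3.76 CPM in KO (SD, n = 4). The WT changes were −0.56 ± 0.13, −1.47 ± 0.15 and −1.06 ± 0.14 log2 (SE) at 6, 12 and 24 h, and the KO changes −0.60 ± 0.19, −1.76 ± 0.21 and −1.52 ± 0.20. All 6 passed, with adjusted p up to 0.00899. The KO call at 6 h was lost without KO 1 or KO 2 (adjusted p = 0.187 and 0.0783), and without KO 1 the change was −0.34. At 3 h the changes were −0.072 ± 0.13 in WT and −0.34 ± 0.18 in KO (adjusted p = 0.663 and 0.139), and the KO change was called without KO 4 (adjusted p = 0.0267).

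Cs (ENSMUSG00000005683), citrate synthase, went the other way and, after TMM scaling, rose at every LPS time, by 0.22 to 0.42 log2. Its libraries lay at 98.5, 95.2, 90.5 and 87.2 CPM in WT and 106, 87.7, 101 and 92.3 CPM in KO at 0 h, and at 132, 118, 131 and 117 and 130.3, 119, 115 and 143 CPM at 12 h. Every 12 h library was above every 0 h library. The means at 3 h were 110.1 ± 3.97 CPM in WT and 114 ± 5.00 CPM in KO (SD, n = 4), at 6 h 116 ± 11.8 and 123 ± 7.46 CPM, and at 24 h 120.0 ± 15.2 and 127 ± 15.0 CPM. The changes from 0 h at 3, 6, 12 and 24 h were 0.24 ± 0.085, 0.31 ± 0.085, 0.42 ± 0.085 and 0.37 ± 0.084 log2 in WT (SE) and 0.22 ± 0.091, 0.33 ± 0.092, 0.37 ± 0.091 and 0.39 ± 0.091 in KO. All 8 passed, the weakest at 3 h (adjusted p = 0.0176 in WT and 0.0454 in KO). The 3 h call was lost in WT without WT 3 or WT 4 (adjusted p = 0.0507 and 0.0887) and in KO without KO 2, KO 3 or KO 4 (adjusted p = 0.205, 0.0881 and 0.115).

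Ogdh, Sdhb and Mdh2 rose late. Sdhb (ENSMUSG00000009863), the iron-sulfur subunit of succinate dehydrogenase, lay at 139, 150.0, 157 and 146 CPM in WT and 187, 146, 151 and 156 CPM in KO at 0 h and at 229, 206, 228 and 253 and 224, 219, 228 and 240.3 CPM at 24 h. Every 24 h library exceeded every 0 h library. At 12 h it lay at 166, 168, 158 and 198 CPM in WT and 169, 166, 184 and 220.2 CPM in KO, with replicate 4 the highest in both, and the 3 and 6 h means were between 146 and 156 CPM. The rise at 24 h was 0.63 ± 0.073 log2 in WT and 0.51 ± 0.091 in KO (SE, n = 4; adjusted p = 3.26e-08 and 2.72e-05). At 12 h it was 0.21 ± 0.074 in WT (adjusted p = 0.0129) and 0.19 ± 0.091 in KO (adjusted p = 0.0699). The WT call was lost without WT 1 or WT 4 (adjusted p = 0.0518 and 0.112), where the change without WT 4 was 0.14, and the KO change was called without KO 1, the highest of the 4 KO replicates at 0 h (0.33, adjusted p = 0.00987).

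Ogdh (ENSMUSG00000020456), the E1 subunit of the oxoglutarate dehydrogenase complex, lay at 45.0, 44.7, 46.1 and 48.6 CPM in WT and 44.9, 50.3, 51.2 and 46.4 CPM in KO at 0 h and at 65.6, 58.0, 61.8 and 59.6 and 60.8, 72.6, 57.3 and 67.5 CPM at 24 h. All 24 h libraries were above all 0 h libraries. Its means at 3, 6 and 12 h were 47.1, 41.3 and 43.6 CPM in WT and 45.7, 44.7 and 49.0 CPM in KO, and none of these 6 changes passed. At 24 h the rise was 0.41 ± 0.087 log2 in WT and 0.42 ± 0.097 in KO (SE, n = 4; adjusted p = 0.000198 and 0.000580). Mdh2 (ENSMUSG00000019179), mitochondrial malate dehydrogenase, lay at 165, 165, 169 and 185 CPM in WT and 205, 176, 176 and 175 CPM in KO at 0 h and at 246, 203, 221 and 243 and 209, 239.6, 209 and 282 CPM at 24 h. Within each genotype the 24 h libraries were all above those of 0 h, with KO 1 the highest at 0 h and KO 4 the highest at 24 h. The rise was 0.41 ± 0.068 log2 in WT and 0.36 ± 0.10 in KO (SE; adjusted p = 7.53e-06 and 0.00315), and the latter was 0.23 without KO 4 (adjusted p = 0.0467). Its 3, 6 and 12 h changes lay between −0.072 and 0.059 log2, and none passed.

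Sdha (ENSMUSG00000021577), the flavoprotein subunit of succinate dehydrogenase that holds the site where itaconate competes with succinate, had the smallest maximum change of the 9, 0.15 log2 over the 8 LPS contrasts, where the next was 0.41 for Mdh2. At 3 and 6 h in WT other members changed less, for example Sdhb by −0.023 and 0.014. The Sdha libraries at 0 h lay at 202.8, 197.3, 195.0 and 199.0 CPM in WT and 231.5, 203.5, 223.4 and 215.0 CPM in KO. At 3 h they lay at 235, 209.7, 219.6 and 217 CPM in WT and 223, 226, 209.6 and 222 CPM in KO. All KO libraries were above all WT libraries before LPS, and the 2 genotypes overlapped at 3 h. In WT the 6, 12 and 24 h means were 220.1 ± 9.04, 198 ± 11.5 and 220.0 ± 8.47 CPM (SD, n = 4), and in KO 218 ± 22.6, 220.0 ± 7.41 and 221 ± 18.4 CPM. WT rose by 0.15 ± 0.061, 0.14 ± 0.061 and 0.15 ± 0.061 log2 (SE) at 3, 6 and 24 h (adjusted p = 0.0423, 0.0410 and 0.0354), and the 12 h change was −0.0079 ± 0.061 (adjusted p = 0.917). These small rises were lost at 3 h without WT 1, WT 3 or WT 4 (adjusted p = 0.158, 0.141 and 0.0729), at 6 h without WT 1, WT 2 or WT 3 (adjusted p = 0.124, 0.0522 and 0.130) and at 24 h without WT 1, WT 3 or WT 4 (adjusted p = 0.0755, 0.101 and 0.117). Like those of Cs, the WT rises of Sdha rest on the TMM factors. In KO the 4 changes lay between −0.018 and 0.019 log2 and none passed. The difference of the responses between genotypes did not pass at any of these times (adjusted p = 1.00 at 3 h).

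**Figure D2:**
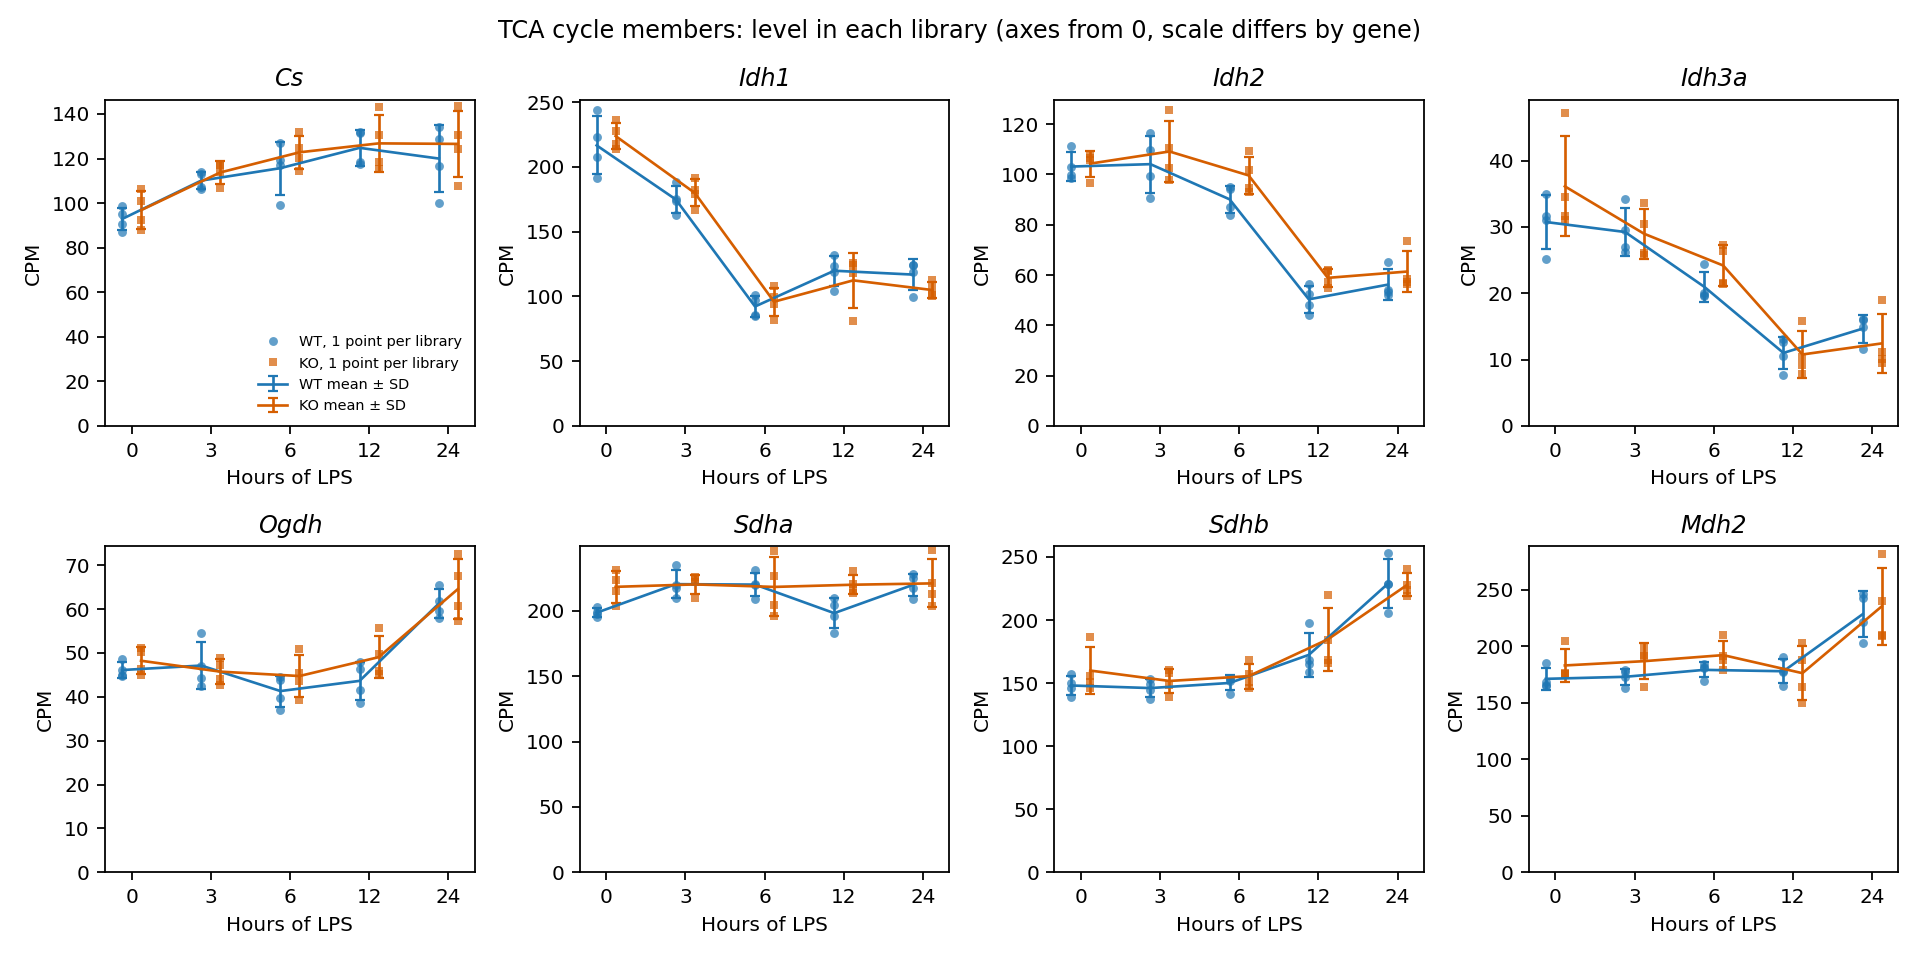
CPM (vertical axes from 0, with a scale of its own for each gene) against hours of LPS for the 8 TCA cycle genes, 1 point per library, WT as blue circles and KO as orange squares, with lines through group means and bars of SD over 4 libraries. Idh1 drops by 6 h, Idh2 and Idh3a by 12 h, Cs climbs from 3 h, and Ogdh, Sdhb and Mdh2 climb at 24 h, while Sdha stays between 183 and 246 CPM in all 40 libraries.

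Counted against all genes, the 9 were called no more often than others at 3 to 12 h. In WT 4 of 9 passed at 3 h, 3 higher and 1 lower, where 54.6% of all genes tested passed, 26.6% higher and 28% lower. The count of 4 fell to 2 without WT 3 or without WT 4. At 6 h 3 rose and 3 fell (68.1% of all, 31% higher and 37.1% lower), and the same counts stood at 12 h (68.2%, 32.3% and 35.9%). At 24 h all 9 passed, 6 higher and 3 lower (69.9%, 34.5% and 35.4%). In KO 2 rose and 1 fell at 3 h (48.6% of all, 22.9% higher and 25.7% lower), 2 rose and 2 fell at 6 h (64.7%, 28.7% and 36%) and 2 rose and 3 fell at 12 h (64.8%, 30.7% and 34%). At 24 h 5 rose and 3 fell in KO (65.8%, 32.8% and 33%). The 4 contrasts of a genotype share its 0 h libraries, so they are not independent of each other. With most of the genome moving, a call by itself sets none of the 9 apart. Calls over all genes also split about evenly between higher and lower, so a mix of directions among the 9 is near the background. The median change of the 8 TCA cycle genes, taken over members that went both ways, was 0.0097, −0.075, −0.044 and 0.26 log2 in WT at 3, 6, 12 and 24 h, against −0.047, −0.086, −0.070 and −0.018 over all genes. In KO it was −0.043, −0.071, −0.038 and 0.19, against −0.044, −0.11, −0.069 and −0.014.

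**Figure D3:**
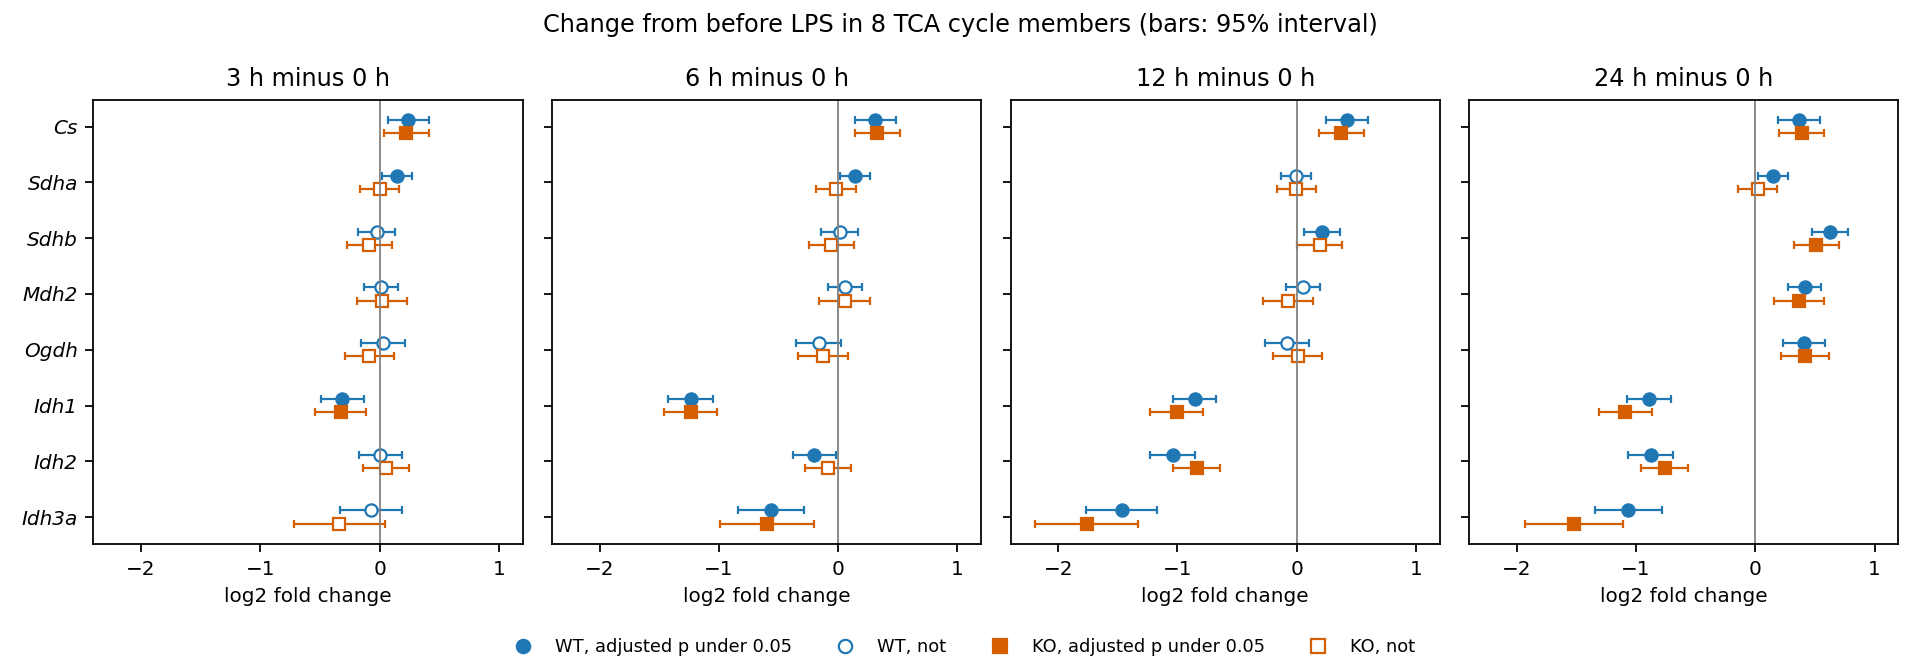
log2 fold change from 0 h (horizontal axis) of the 8 TCA cycle genes (rows) at 3, 6, 12 and 24 h of LPS, WT as blue circles and KO as orange squares, with 95% intervals as bars and filled symbols where edgeR's adjusted p was under 0.05. The 3 isocitrate dehydrogenase genes sit left of 0 at 12 and 24 h, down to −1.76 for Idh3a in KO at 12 h, and Cs sits right of 0 at all 4 times.

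The late phase was also compared directly, 24 h against 6 h. In WT 4 genes were higher at 24 h and 3 lower (62.8% of all genes passed, 31.7% higher and 31.2% lower), and in KO 3 were higher and 3 lower (61.2%, 31.9% and 29.3%). Ogdh rose by 0.57 ± 0.092 log2 in WT and 0.54 ± 0.10 in KO (SE, n = 4), and Sdhb by 0.61 ± 0.075 and 0.57 ± 0.092. Mdh2 rose by 0.35 ± 0.069 in WT and 0.31 ± 0.10 in KO, and the KO call was lost without KO 2 (adjusted p = 0.111). Idh2 fell by 0.68 ± 0.093 and 0.68 ± 0.097 log2 and Idh3a by 0.50 ± 0.15 and 0.92 ± 0.21 in WT and KO. Acod1 fell as given above, and Cs and Sdha did not pass in either genotype. So between 6 and 24 h the late risers Ogdh, Sdhb and Mdh2 went up while Acod1, Idh2 and Idh3a went down. The sum of the 8 TCA cycle genes was 1007 ± 33.4 CPM in WT and 1070.5 ± 58.0 CPM in KO at 0 h (SD, n = 4), 898 ± 41.0 and 939 ± 63.9 CPM at 12 h and 1046 ± 79.5 and 1054 ± 73.6 CPM at 24 h. This sum includes the cytosolic Idh1. From 0 to 12 h the mean of Idh1 went from 217 to 120 CPM in WT and from 224 to 112 CPM in KO. That is nearly as large as the fall of the sum, which is thus not a measure of the mitochondrial genes alone.

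Markers of other states moved with LPS beside these genes. The 8 monocyte markers summed to 154 ± 21.2 CPM in WT at 0 h, 533 ± 66.6 at 6 h and 215 ± 16.2 at 24 h (SD, n = 4), and in KO to 136 ± 10.8, 517 ± 24.4 and 191 ± 9.10 CPM. The sum weighs abundant genes most, and its members went both ways. At 24 h against 0 h 5 of the 7 tested were called higher and 2 lower in each genotype. Of all genes 34.5% and 35.4% were in WT and 32.8% and 33% in KO. The list's median at 24 h was 2.67 log2 in WT and 2.18 in KO. The 7 osteoclast markers, mostly Atp6v0d2, summed to 169.8 ± 28.5 CPM in WT and 255 ± 44.1 in KO at 0 h and to 72.9 ± 15.3 and 105 ± 13.9 CPM at 24 h. The neutrophil list, mostly S100a8 and S100a9, summed to 32.3 ± 4.17 CPM in WT at 0 h and 69.3 ± 9.00 at 6 h. The dendritic cell and stromal lists reached at most 23.3 and 6.51 CPM in sum in a library. The part of these markers in the results was not tested.

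Whether loss of Otulin changes the itaconate gene or the cycle genes was asked at each of the 5 times. None of the 9 genes passed between KO and WT at 0, 3, 6, 12 or 24 h in edgeR's test, in 45 comparisons, and 0 of the 45 had an unadjusted p under 0.05. DESeq2 also called 0 of the 45. Over all genes the share that passed was 0% at 0 h, where 900 of 11734 had an unadjusted p under 0.05 by edgeR, 0.689% at 3 h, 1.01% at 6 h, 0.0464% at 12 h and 0.0809% at 24 h, so a count of 0 of 9 is near the background. Of the 45 the smallest p was that of Acod1 at 6 h, where KO libraries lay 0.16 ± 0.076 log2 above WT libraries (SE, n = 4; adjusted p = 0.417 by edgeR). Its 95% interval ran from −0.00089 to 0.32, that is 0.999 to 1.25-fold. At 6 h 3 of the 4 KO libraries were above all WT libraries, and the lowest KO library, KO 1, was below 2 WT libraries. The Acod1 differences at 3, 12 and 24 h were 0.0016 ± 0.092, 0.079 ± 0.11 and −0.073 ± 0.092 log2, with intervals of −0.19 to 0.20, −0.17 to 0.33 and −0.27 to 0.12. At 0 h, where the WT libraries ran from 6.55 to 27.2 CPM, the interval was wider (−0.79 to 0.85), so a difference before LPS was poorly resolved.

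For the 8 TCA cycle genes the 40 differences lay between −0.23 and 0.23 log2, both for Idh3a, and their 95% intervals between −0.67 and 0.52. Of the 40 differences 30 were above 0, with 8 of 8 at 0 h, 7 of 8 at 6 h and 5 of 8 at 3, 12 and 24 h. Over all genes the median difference was 0.0018 log2 at 0 h and −0.0081 at 6 h. The genes share the same libraries, so these counts are not independent, and the lean was not tested. Without Idh3a, whose counts were the lowest of the 8, the 35 intervals reached from −0.41 to 0.44. Each interval bounds its own gene and time only, and that of Sdha at 0 h, for example, ran from −0.018 to 0.27. The smallest p in each comparison belonged to Sdha at 0 h (0.13 ± 0.068 log2), Mdh2 at 3 h (0.11 ± 0.072), Acod1 at 6 h, Idh2 at 12 h (0.21 ± 0.11) and Idh1 at 24 h (−0.16 ± 0.088). For these 4 cycle genes edgeR's adjusted p ran from 0.585 to 0.721. In 2 of the 45 comparisons all 4 KO libraries lay above all 4 WT libraries, both for Sdha. Of all genes tested 2.63%, 3.26%, 5.07%, 3.28% and 2.43% had all KO libraries above all WT libraries at 0, 3, 6, 12 and 24 h, so 2 of 45 is near the background. The first was at 0 h, with the values given above. The second was at 12 h, at 216, 214, 230.3 and 220.2 CPM in KO and 209, 196, 183 and 204 CPM in WT (0.13 ± 0.086 log2, adjusted p = 0.776). At 3, 6 and 24 h the genotype differences of Sdha were −0.0024, −0.031 and 0.0012 log2 and the libraries overlapped.

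Beside these comparisons the summed markers of 3 lists did not overlap between genotypes at some times. Among single genes tested, all KO libraries lay below all WT libraries for 327 of 11035 at 3 h. At 6 and 24 h the counts were 289 of 10518 and 220 of 11122. All KO libraries lay above for 533 of 10518 at 6 h, 354 of 10783 at 12 h and 270 of 11122 at 24 h. These counts are of genes, not of list sums. The sum of the 8 macrophage markers was lower in KO without overlap at 6 h (6663 to 7097 CPM in WT and 6228 to 6660.2 CPM in KO libraries) and at 24 h (5936 to 7482 and 5471 to 5830.5 CPM), and overlapped at 0, 3 and 12 h. Of these 8, Lyz2, the lysozyme M gene whose promoter drives the Cre, was called lower in KO at 3, 6 and 24 h (−0.47 ± 0.094, −0.44 ± 0.075 and −0.59 ± 0.10 log2), and the other 7 did not pass at any time. Lyz2 was the largest part of the sum, with group means of 1956 to 3112 CPM. At 6 h KO minus WT was above 0 for 7 of the 8 and below 0 for Lyz2. At 24 h 4 of the 8 lay above 0 and 4 below. The sum of the 10 neutrophil markers was lower in KO without overlap at 3 h (57.2 to 71.7 CPM in WT and 30.9 to 44.3 CPM in KO libraries), 6 h (59.9 to 80.2 and 30.4 to 57.1 CPM) and 24 h (33.4 to 45.1 and 19.0 to 27.4 CPM). Only 2 of the 10 were tested at 3 h and 2 at 24 h. Of these 2 and 1 were called lower (0.326% and 0.027% of all genes were), while 0 of 3 tested passed at 6 h. The monocyte sums overlapped at 3 h (243 to 282 CPM in WT and 179 to 249.9 CPM in KO libraries). Of 7 monocyte markers tested, 3 were called lower in KO at 3 h and 0 at the other times. At 3 h 6 of the 7 lay below 0 (median −0.48 log2). The sum of the 7 osteoclast markers was higher in KO without overlap at 6 h (115 to 165 CPM in WT and 166 to 233 CPM in KO libraries), 12 h (66.0 to 101 and 106 to 124 CPM) and 24 h (55.1 to 92.6 and 95.4 to 126 CPM), and overlapped at 0 h (146 to 211 and 197 to 295 CPM). Of 4 osteoclast markers tested at 6 h, 1 was called higher (0.837% of all genes were). The part of these markers in the genotype differences was not tested.

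**Figure D4:**
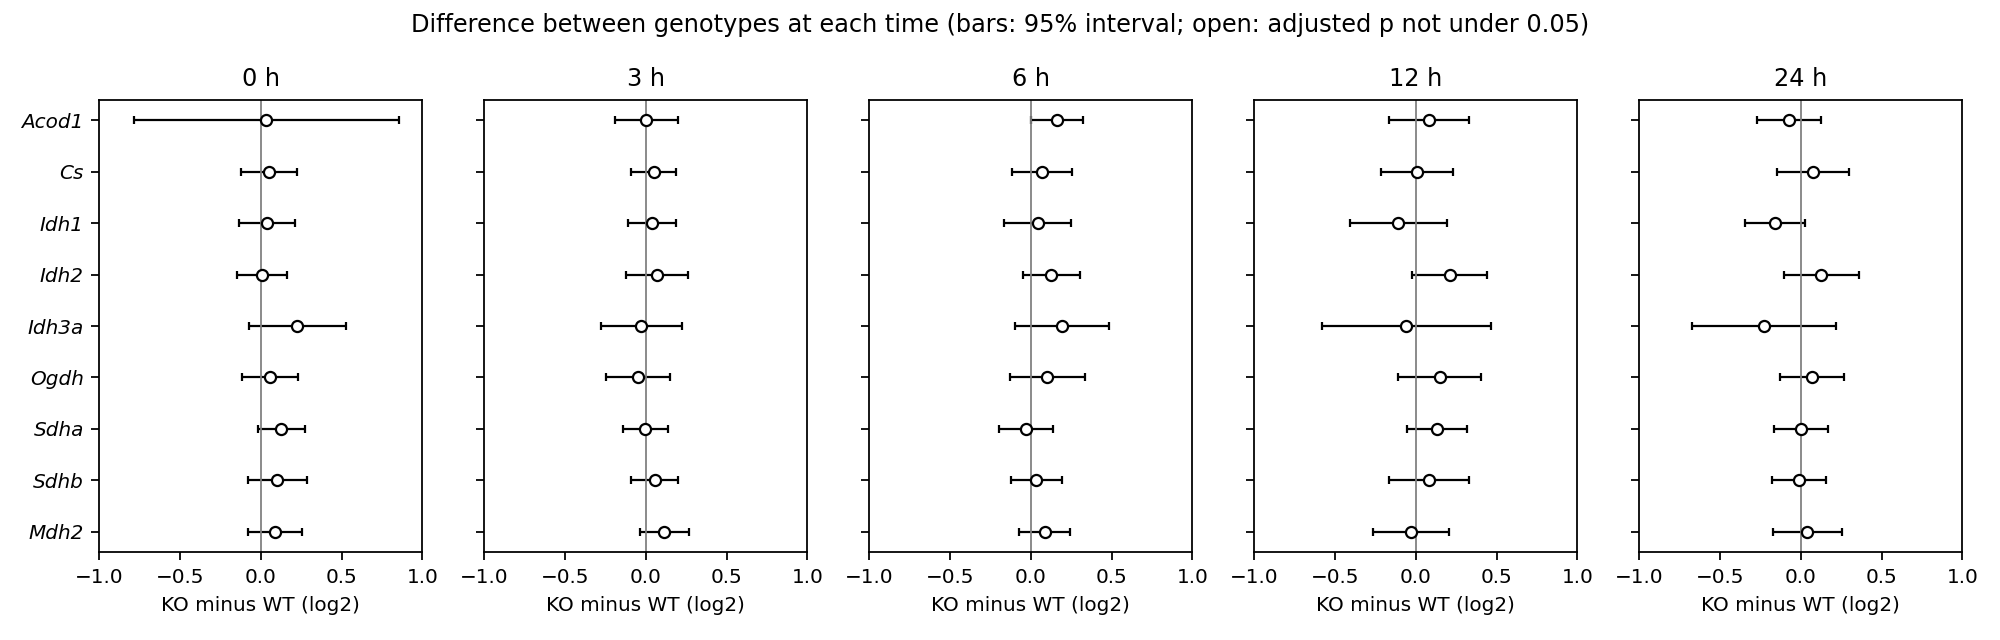
KO minus WT difference in log2 (horizontal axis) for the 9 genes (rows) at 0, 3, 6, 12 and 24 h of LPS (panels), with 95% intervals as bars. All symbols are open because none passed edgeR's test, and all 45 intervals cross 0, the closest to leaving it being Acod1 at 6 h.

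The responses themselves were compared as an interaction, the KO change minus the WT change. None of the 9 passed at 3, 6, 12 or 24 h against 0 h, nor in the change from 6 to 24 h. Of all genes 0%, 0%, 0%, 0.00818% and 0.0606% passed in these 5 tests. By edgeR 342, 529 and 396 genes had an unadjusted p under 0.05 at 3, 6 and 12 h, and 0 of the 9 did in any of the 5. The smallest p was that of Acod1 in the fall from 6 to 24 h, which was 0.23 ± 0.12 log2 deeper in KO (SE; adjusted p = 0.825 by edgeR, 95% interval −0.49 to 0.022). Wide intervals belonged to Idh3a, for example −1.01 to 0.097 at 24 h against 0 h around −0.46, and to Acod1, whose 0 h libraries were spread in WT as given above (−0.63 to 0.88 at 6 h around 0.13). These tests do not show that the responses are alike. They bound the sizes that 4 libraries per group can tell.

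The other 13 genes of the cycle and its cytosolic side enzymes put the members in context. In WT 5 rose and 5 fell at 24 h (median 0.032 log2, against −0.018 over all genes), and at 12 h 1 rose and 8 fell (median −0.26, against −0.070). Of all genes tested in WT 34.5% rose and 35.4% fell at 24 h, and 32.3% and 35.9% at 12 h. In KO 2 rose and 5 fell at 24 h (median −0.098, against −0.014), and 0 rose and 7 fell at 12 h (median −0.25, against −0.069). The KO shares over all genes were 32.8% higher and 33% lower at 24 h, and 30.7% and 34% at 12 h. The deepest falls at 24 h in WT were in Fh1 and Suclg2. Fh1, fumarate hydratase, lay at 74.9, 73.3, 78.3 and 67.5 CPM in WT libraries at 0 h and 32.3, 22.3, 28.1 and 25.3 CPM at 24 h, with no overlap (−1.45 ± 0.11 log2, SE, adjusted p = 6.56e-12), and fell in KO by 1.44 ± 0.093. Suclg2, the GTP-forming subunit of succinyl-CoA synthetase, changed by −1.36 ± 0.21 in WT and −2.16 ± 0.24 in KO. Aco1, cytosolic aconitase, fell by 0.99 ± 0.10 in WT and 0.86 ± 0.16 in KO. Idh3g, a regulatory partner of Idh3a, fell by 0.33 ± 0.086 in WT and 0.49 ± 0.087 in KO, and the WT call was lost without WT 2 (adjusted p = 0.0562). Dld, the E3 subunit shared by the oxoglutarate and pyruvate dehydrogenase complexes, rose by 0.34 ± 0.072 in WT and 0.26 ± 0.089 in KO, the latter not called without KO 4 (adjusted p = 0.0745). Among the mitochondrial cycle genes named here, falls of Idh2, Idh3a, Idh3g, Suclg2 and Fh1 at 24 h passed in both genotypes. So did rises of Cs, Ogdh, Dld, Sdhb and Mdh2, with the lost calls given above for Idh3g and Dld. None of the 13 passed between genotypes at any time. Suclg2 had the smallest adjusted p, at 24 h, where KO libraries held 3.29, 2.44, 3.85 and 2.36 CPM and WT libraries 4.28, 6.24, 5.74 and 6.45 CPM without overlap (−0.93 ± 0.26 log2, adjusted p = 0.243).

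Of the pyruvate dehydrogenase complex and its regulators, which set the entry of pyruvate into the cycle, 12 of 13 were tested within genotypes. In WT at 24 h 4 rose and 2 fell (median 0.083 log2, against −0.018 over all genes), and in KO 3 rose and 2 fell (median 0.041, against −0.014). Of all genes 34.5% rose and 35.4% fell in WT, and 32.8% and 33% in KO, so these counts are not above the background. The large changes were in the kinases and phosphatases that switch the complex off and on, not in its subunits. Pdk1 fell by 1.64 ± 0.11 log2 in WT and 1.79 ± 0.12 in KO, and Pdk3, another inhibiting kinase, rose by 1.86 ± 0.12 and 1.67 ± 0.13 (SE, n = 4). Pdp1, an activating phosphatase, fell at 3 h by 1.47 ± 0.12 in WT and 1.41 ± 0.11 in KO, and at 24 h was 0.60 ± 0.10 and 0.37 ± 0.10 above 0 h. Pdp2, its relative, fell by 0.86 ± 0.11 in WT and 1.25 ± 0.12 in KO at 24 h. The E1 beta subunit gene Pdhb rose by 0.24 ± 0.067 in WT and 0.23 ± 0.078 in KO, the latter not called without KO 2 or KO 4 (adjusted p = 0.0898 and 0.0602). Mpc2, of the mitochondrial pyruvate carrier, rose by 0.24 ± 0.10 in WT, a call lost without WT 1, WT 2 or WT 3 (adjusted p = 0.0797, 0.141 and 0.186), and lay 0.036 ± 0.13 from 0 h in KO (adjusted p = 0.827). Pdk4 reached at most 0.271 CPM in a library and was not tested. None of the list's genes passed between genotypes, though Pdp2 at 24 h was called with no filter (adjusted p = 0.0454).

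Citrate export, malic enzymes and genes that refill the cycle were counted next, with 11 of 12 tested. In WT at 24 h 3 rose and 5 fell (median −0.017 log2, against −0.018 over all genes), and in KO 4 rose and 5 fell (median −0.24, against −0.014). Of all genes 34.5% rose and 35.4% fell in WT, and 32.8% and 33% in KO. The 3 mitochondrial carriers rose. Slc25a10, the dicarboxylate carrier, rose by 0.77 ± 0.16 in WT and 0.97 ± 0.16 in KO, Slc25a1, the citrate carrier, by 0.59 ± 0.15 and 0.83 ± 0.30, and Slc25a11, the oxoglutarate carrier, by 0.55 ± 0.074 and 0.58 ± 0.077. The KO call of Slc25a1 was lost without KO 2, KO 3 or KO 4 (adjusted p = 0.0795, 0.0854 and 0.107). Pck2, the mitochondrial phosphoenolpyruvate carboxykinase, fell by 1.77 ± 0.12 in WT at 6 h and was −0.63 ± 0.10 from 0 h at 24 h. Acly, which cleaves citrate in the cytosol, fell by 0.45 ± 0.081 in WT and 0.65 ± 0.085 in KO at 24 h. None of the list passed between genotypes at any time.

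**Figure D5:**
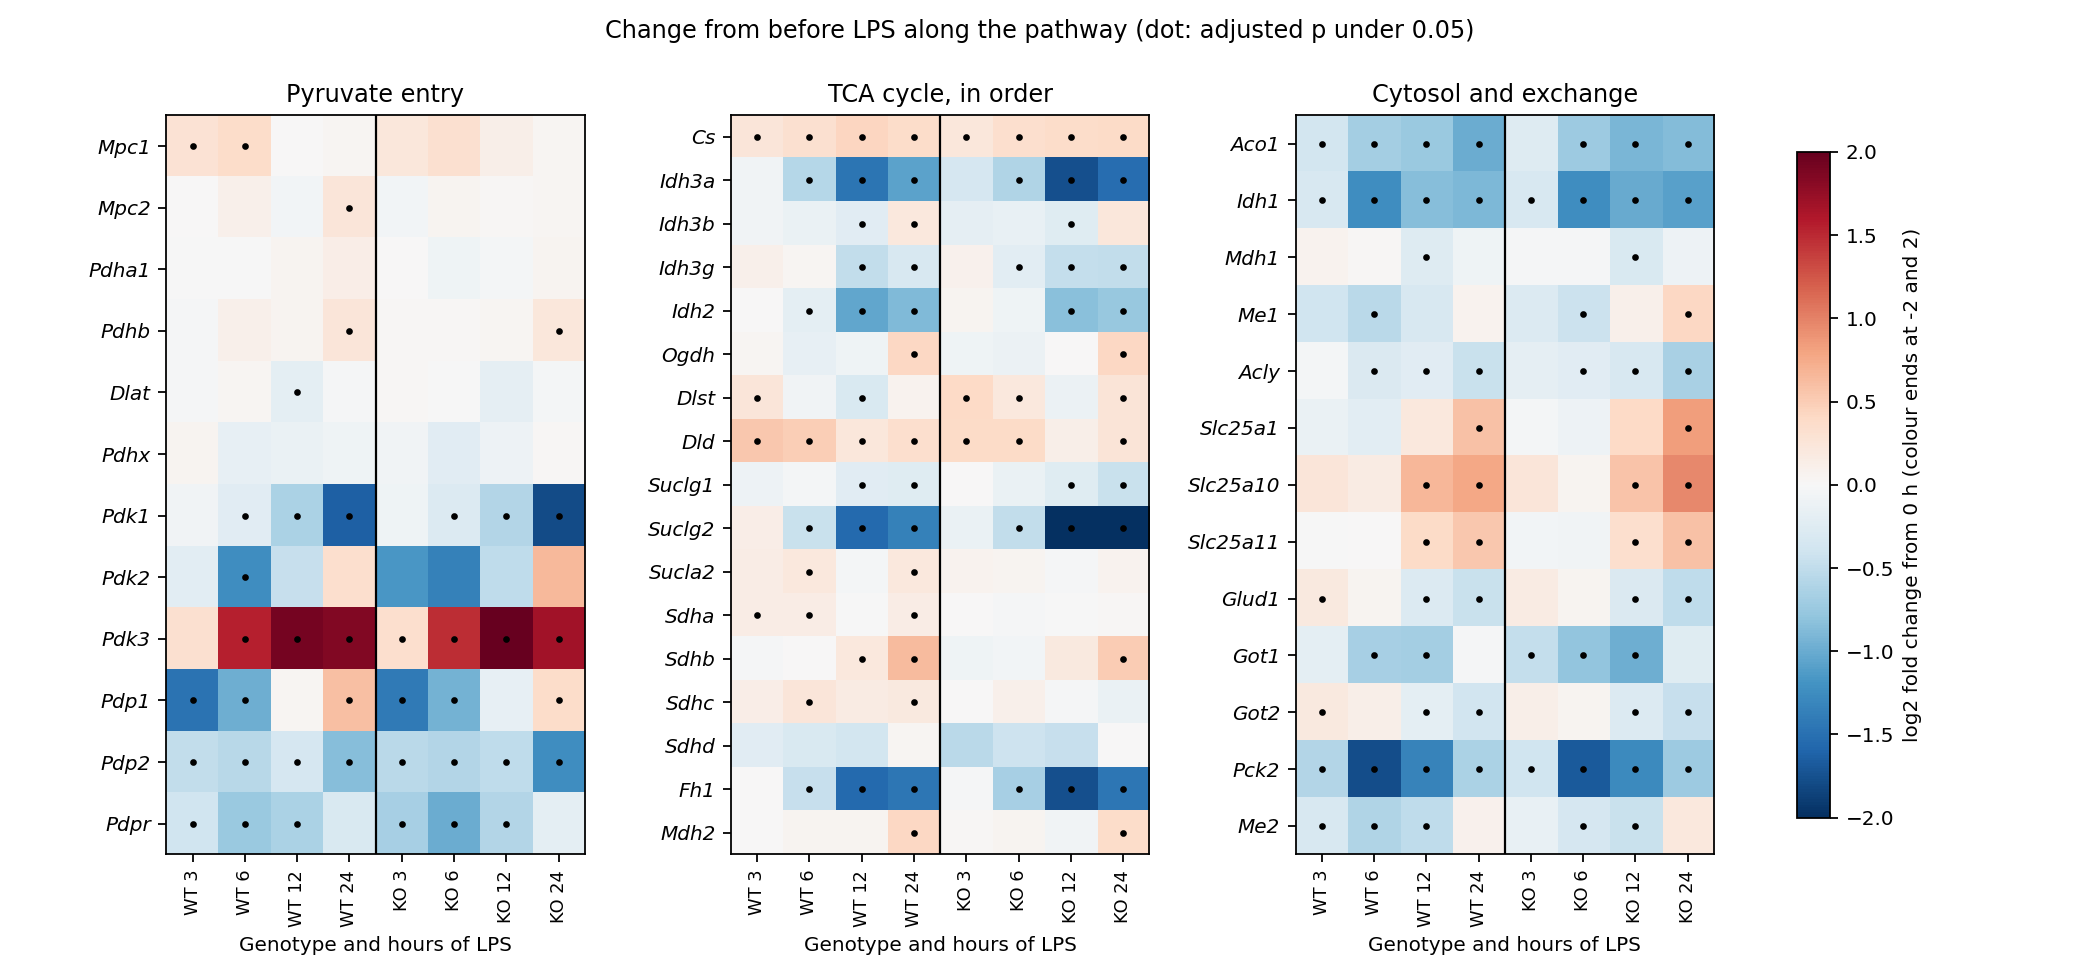
Colour shows the log2 fold change from 0 h (blue lower, red higher, colour scale ending at −2 and 2) for genes of pyruvate entry, the cycle in its order, and cytosolic and exchange steps (rows) at 3, 6, 12 and 24 h of LPS in WT and KO (columns), with a dot where edgeR's adjusted p was under 0.05. In the cycle the rows of Idh3a, Idh2, Suclg2 and Fh1 turn blue by 12 h in both genotypes and that of Cs is red throughout.

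The 4 assembly factors of succinate dehydrogenase were measured beside its subunits. Sdhaf2, which attaches the flavin to SDHA, rose by 1.10 ± 0.10 log2 in WT and 1.11 ± 0.10 in KO at 24 h (SE, n = 4), a larger rise than that of Sdhb. Sdhaf1, which helps to mature SDHB, fell by 1.19 ± 0.19 in WT and 0.95 ± 0.18 in KO at 3 h and by 1.28 ± 0.20 and 1.78 ± 0.21 at 6 h, and then came back to 0.38 ± 0.16 and 0.36 ± 0.17 at 24 h (adjusted p = 0.0430 and 0.0566). The WT call at 24 h was lost without WT 2 or WT 3 (adjusted p = 0.0624 and 0.266). Sdhaf3 fell by 0.88 ± 0.23 in WT and 0.75 ± 0.20 in KO, and Sdhaf4 by 0.44 ± 0.12 and 0.87 ± 0.17, the WT call of Sdhaf4 being lost without WT 3 (adjusted p = 0.0564). In sum 2 rose and 2 fell in WT at 24 h (median −0.031), and 1 rose and 2 fell in KO (median −0.19), against all-gene medians of −0.018 and −0.014. The shares over all genes were 34.5% higher and 35.4% lower in WT, and 32.8% and 33% in KO. None passed between genotypes.

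Genes that handle itaconate once it is made were few in these cells. Of 6 listed, 3 were tested within genotypes. Slc13a3, a dicarboxylate carrier described to take up itaconate, lay at 1.23, 0.660, 0.814 and 2.50 CPM in WT libraries at 0 h and 8.32, 10.9, 13.8 and 18.4 CPM at 24 h. No 24 h library overlapped the 0 h libraries, and the rise was 3.27 ± 0.32 log2 in WT and 2.75 ± 0.29 in KO (adjusted p = 1.40e-09 and 1.22e-08). Auh, described in the mitochondrial breakdown of itaconate, rose by 0.93 ± 0.11 in WT and 0.92 ± 0.099 in KO. Clybl, the citramalyl-CoA lyase of that breakdown, differed by −0.25 ± 0.20 and −0.29 ± 0.24 and did not pass (adjusted p = 0.260 and 0.289). The list's median at 24 h was 0.93 in WT and 0.92 in KO over these 3, against −0.018 and −0.014 over all genes. Oxgr1, a receptor described for itaconate, and Sucnr1, the succinate receptor, had group means of at most 0.124 CPM, and Slc13a5 had no count in any library. None passed between genotypes.

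Of 7 transcription factors with a described part in Acod1 induction, 6 rose and 1, Tfeb, fell at 3 h and at 6 h in both genotypes. Of all genes 26.6% and 31% rose in WT and 22.9% and 28.7% in KO at these times. At 24 h 7 of the 7 rose in WT and 5 in KO (34.5% and 32.8% of all genes). Irf1, an interferon-responsive factor, rose by 4.81 ± 0.089 log2 in WT at 3 h and stood 3.40 ± 0.085 above 0 h at 24 h (SE, n = 4). Rela, an NF-κB subunit, was 1.64 ± 0.087 and 0.75 ± 0.089 higher in WT at 3 and 24 h, and Cebpb, a factor of inflammatory genes, 1.22 ± 0.14 and 1.47 ± 0.14. Tfeb, the lysosomal regulator, fell by 1.98 ± 0.29 in WT at 3 h and 0.99 ± 0.26 at 6 h, and lay 0.78 ± 0.21 above its 0 h level at 24 h. The list's median at 3 h was 1.64 in WT and 1.69 in KO, against −0.047 and −0.044 over all genes. Between genotypes Irf8, an interferon regulatory factor like Irf1, was higher in KO at 6 h (0.837% of all genes were) and the other 6 did not pass at any time by edgeR, though Tfeb at 0 h was called with no filter (adjusted p = 0.00493). Irf8 libraries at 6 h held 401, 363, 443 and 389 CPM in KO and 334, 251, 267 and 289 CPM in WT, without overlap (0.47 ± 0.090 log2, adjusted p = 0.0177). The Irf8 call was lost without KO 1, KO 3, WT 2 or WT 3 (adjusted p = 0.0747, 0.0729, 0.0937 and 0.0630) and without both male animals (adjusted p = 0.0536), and its difference at 0, 3, 12 and 24 h lay between −0.12 and 0.043 log2.

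Genes described to respond to itaconate or its derivatives did not share 1 direction. Of 8, 4 rose and 2 fell in WT at 6 h (median 0.23 log2, against −0.086 over all genes) and 5 rose and 1 fell in KO (median 0.30, against −0.11). The shares over all genes at 6 h were 31% higher and 37.1% lower in WT, and 28.7% and 36% in KO. Nfkbiz, whose protein IκBζ is reported to be held down by itaconate derivatives, rose by 5.61 ± 0.14 log2 in WT at 3 h and by 2.00 ± 0.14 at 24 h. Atf3, a stress factor, rose by 1.55 ± 0.080 at 6 h, and Hmox1, haem oxygenase 1, by 1.19 ± 0.12 at 12 h. Gclm, a glutathione synthesis subunit driven by NRF2, fell by 0.92 ± 0.17 in WT at 6 h and by 0.32 ± 0.10 in KO, where the call was lost without KO 1 or KO 3 (adjusted p = 0.181 and 0.0881) and the change without KO 1 was −0.17. Between genotypes, by edgeR, 1 of the 8 was higher in KO at 3 h (0.362% of all genes) and 3 at 6 h (0.837%), while 0 of the 8 passed at 0, 12 and 24 h and Acod1 did not pass at any time. Atf3 at 3 h lay at 346, 325, 346 and 370.0 CPM in KO and 251, 240.0, 266 and 272 CPM in WT, without overlap (0.43 ± 0.069 log2, adjusted p = 0.00597), a call lost without WT 2 (adjusted p = 0.0532). At 6 h Gclm, Srxn1, another NRF2 target, and Atf3 were higher in KO by 0.67 ± 0.11, 0.62 ± 0.097 and 0.41 ± 0.081 log2. The 6 h call of Atf3 was lost without KO 1, KO 2 or WT 2 (adjusted p = 0.0561, 0.0653 and 0.0825) and with the replicate number as a block (adjusted p = 0.0647). Other calls came only under alternatives. Gclm at 3 h (0.38 ± 0.089 log2, adjusted p = 0.0564 by edgeR) was called by DESeq2 (adjusted p = 0.0206), with no filter (0.000331) and without WT 1 (0.0461), which makes the 3 h count 2 of 8. At 12 h KO minus WT was 0.55 ± 0.11 log2 for Srxn1 and 0.51 ± 0.15 for Gclm, which did not pass (adjusted p = 0.104 and 0.352 by edgeR), and 4 and 2 of the 14 alternatives called them. Gclm at 24 h was called with no filter (adjusted p = 0.0149).

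To see which genes kept company with the 9, each was correlated with 8830 genes over the 10 group means of log2(CPM + 1). The 10 means come from the same 40 libraries and share the time course, so high values are common, and they are given as a description. Closest to Acod1 were the DNA exonuclease gene Trex1 (Pearson's r = 0.9996), the TNF receptor-associated Traf1 (0.9994), the interferon-inducible Ifi205 (0.9993), the adenosine receptor gene Adora2a (0.9989) and Ifi211 (0.9984). For Idh3a they were C1qbp (0.9962), which encodes a mitochondrial matrix protein, Aldh9a1, Rgs10, Dpy30 and Bcap29 (0.9905). For Idh2 they were Rnf7 (0.9905), Naca, Anp32e, Ndufb10, a respiratory complex I subunit, and Thyn1 (0.9878). Idh1 went with St3gal2 (0.9900), Cpsf6, Slc38a2, Nfia and Uhrf1 (0.9844). Cs went with Zfand3 (0.9915), Twf1, Clec12a, Nckap1l and Anxa4 (0.9823), and Sdhb with Srr (0.9884), Slc11a1, Car5b, Gngt2 and Gde1 (0.9865). Ogdh and Mdh2 had looser company, from Cdadc1 (0.9704) to Mlf2 (0.9622) and from Pcna (0.9505) to Dnajc15 (0.9352), with Naxe, Bet1 and Hsd17b10 next for Ogdh and Mlf2, Bbc3 and Iscu for Mdh2. Sdha was closest to Sucla2 (0.9329), the ATP-forming subunit of succinyl-CoA synthetase, and then to Ndfip2, Dnajc12, Trappc2l and Nif3l1 (0.7831). Among the 9 themselves Idh2 and Idh3a had r = 0.955, and Ogdh, Sdhb and Mdh2 had 0.861 to 0.894 with each other. Acod1 and Cs had r = 0.915, and Acod1 and Idh1 −0.795.

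Counts of a 3′ tag can be shared with an overlapping gene or a close copy. In the GENCODE vM21 annotation, on GRCm38 and not on the build of the files, no other gene overlapped the last 500 bases of the 9 genes' coding transcripts. No transcript of another gene matched their last 300 bases at 95% identity or more over at least 50 bases.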

How the data were processed

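The 9 genes, the other gene lists and the rule for naming genes were chosen with earlier results of these data known. Expected counts per Ensembl gene were deposited by the authors in 1 table, not normalized. The tools listed per the submitters' processing notes are STAR 2.7.10a, RSEM 1.3.3, UMI-tools 1.1.2, FastQC 0.11.9 and cutadapt 3.7, with the build GRCm39. How strand and molecular identifiers were handled, and with which annotation, is not given in the sources used here. Libraries were made with the QuantSeq 3′ FWD kit, per the labels' protocols. All values were whole, so rounding changed none, and totals ran from 3615155 to 6829303. No 2 replicates agreed within counting noise (chi-square per degree of freedom 2.34 or more).

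Tests were edgeR 4.0.16 quasi-likelihood F-tests in R 4.3.3 (TMM scaling, filterByExpr with a minimum count of 10, robust fit, prior count 0.125), two-sided, with Benjamini-Hochberg adjustment over all genes tested and calls at 0.05. Genotypes were compared in the 8 libraries of a time, LPS times within the 20 libraries of a genotype, and responses between genotypes in the 16 libraries of 2 times. Standard errors (SE) divide the size of each log2 change by √F. CPM use TMM-scaled totals. The alternatives were DESeq2 1.42.0, its size factors in edgeR, no filter, each replicate left out, no KO 3 and WT 4 animals, a replicate block and 1 fit of all 40 libraries. A replicate left out is all libraries of 1 number in a genotype. The fits were tested on simulated counts. Named from other lists were up to 6 genes called in WT at 24 h with the largest change, and genes called between genotypes; Clybl and genes listed as low were named after their values were seen. Likeness used genes with a symbol that reach a group mean of 10 CPM and a pseudocount of 1. Some genes of these lists count in the totals and are not reported here by name. BLAST 2.17.0 compared transcript ends. The p-values measure the spread between replicates, whose separate origin rests on the series' text.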

Additional observations from a re-analysis of the deposited data

Results flagged for a closer look

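In 6 of the 90 groups of 4 libraries formed by the 9 genes, 1 library stood apart from the other 3 by Dixon's gap test, where chance gives about 1 in 20. Idh1 in KO 3 at 12 h was at 81.2 CPM, below 118 to 126 CPM in the other 3. Idh2 at 24 h was highest in replicate 4 of both genotypes, at 73.6 CPM in KO against 56.6 to 58.3 CPM and at 65.2 CPM in WT against 52.2 to 54.3 CPM. Idh3a in KO 4 at 24 h was at 19.0 CPM, above 9.54 to 11.1 CPM. Idh3a in WT 3 at 6 h was at 24.4 CPM, above 19.6 to 20.1 CPM. Mdh2 in KO 1 at 0 h was at 204.9 CPM, above 175.1 to 175.9 CPM.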

How the results depend on the processing

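None of the 9 genes was called between KO and WT under any of the alternatives (630 of 630 values kept their side of the threshold, lowest adjusted p = 0.271), and the same held for the interaction (630 of 630, lowest 0.303). Of 900 LPS values 849 kept their call, 46 lost it, 5 gained it and 0 reversed. LPS fits use 1 genotype, so the 90 values without the KO 3 and WT 4 animals repeat those without KO 3 or without WT 4. These 90, with 7 lost calls, are therefore counted again among the 900. In WT at 3 h the number of genes called was 4, and leaving out 1 replicate gave 2 to 4, with 2 without WT 4. With no filter Acod1's WT fall from 6 to 24 h (adjusted p = 0.0704), the 3 WT calls of Sdha (lowest 0.317), Sdhb in WT at 12 h (0.0671) and Cs in KO at 3 h (0.0915) were lost. Idh2 in WT at 6 h was lost with DESeq2's size factors or test (0.177 and 0.198), where Sdhb in KO at 12 h was gained. In 1 fit of all 40 libraries the calls of Idh2 at 6 h and of Sdha were lost too (Sdha lowest 0.0514). The cause was not tested. Replicates of 1 number within a genotype deviated together (median correlation 0.138 over 80 pairs, 52 over 0.1). Pairs of different numbers had a median of −0.0486 over 240 pairs, 13 over 0.1. In 66 of 80 comparisons of a library with the 4 of a later time the closest had its own number. Libraries of 1 number were thus linked across times, which the main LPS tests do not model. With the replicate block all 90 LPS values kept their call, as did the 45 KO minus WT and 45 interaction values. Acod1 at 0 h rested on 436 counts over the 4 WT libraries and 442 over the 4 KO libraries, with SDs of 8.68 and 2.71 CPM, and the part of depth in this spread was not tested.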
